A study of Rattus norvegicus with 10 samples.

Results

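The livers of 10 cirrhotic rats were ordered by how much collagen messenger RNA they held, and the 5 rats at the top of this order (collagen-high) were set against the 5 at the bottom (collagen-low), so that all 10 of the 10 arrays were used. The order came from a collagen score, the mean log2 signal of Col1a1, Col1a2 and Col3a1, and each gene was read from the probe set with the highest variance over the arrays. All rats were male Wistar rats in which cirrhosis was induced by breathing carbon tetrachloride (CCl4), a chemical that injures hepatocytes. Vehicle was given to 5 of them, and CVX-060, an inhibitor of angiopoietin-2 used to activate the receptor Tie2, was injected into the tail vein of the other 5 every week for 4 weeks, at a dose of 10 mg/kg. RNA of whole liver was hybridised to an Affymetrix rat array for each animal, the ages of the rats are not given in the sources used here, and healthy livers were not analysed here. For its own analysis the paper kept 2 replicates per treatment, after quality control and a view by principal components. The 10 arrays used here therefore include some that the paper set aside. Both groups held treated and untreated rats, with 2 vehicle and 3 CVX-060 rats in the collagen-high group and 3 vehicle and 2 CVX-060 rats in the collagen-low group.

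In a fibrotic liver, stellate cells and portal fibroblasts become myofibroblasts and lay down fibrillar collagen, mainly types I and III, as scar between the nodules of hepatocytes. Collagen chains are hydroxylated and folded in the cell, trimmed after secretion and crosslinked by lysyl oxidases, and metalloproteinases and their inhibitors set how fast the scar is removed. Transforming growth factor beta (TGF-beta) is the best known driver of this programme, and proliferating bile ductules and inflammatory cells often lie within the scar.

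The groups were defined by values measured on the same arrays, so every difference between them is given as a description of how genes varied along the collagen order, and none of it is a test. A difference below is the collagen-high minus the collagen-low rats on the log2 scale, adjusted for treatment in a linear model of all genes by limma, with its standard error (SE, 5 rats against 5), so that 1 unit is a 2-fold difference. Per-rat values are log2 signals in descending order of the score, which was CVX-060 rat 5, vehicle rat 2, CVX-060 rats 1 and 2 and vehicle rat 3 in the collagen-high group, and vehicle rat 4, CVX-060 rats 4 and 3 and vehicle rats 5 and 1 in the collagen-low group. Signals of different probe sets cannot be compared with each other. The RNA came from whole liver, so that more cells of a type and more RNA per cell cannot be told apart.

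The score was 9.85, 9.72, 9.49, 9.36 and 9.32 in the collagen-high rats and 9.32, 9.05, 8.63, 8.55 and 8.41 in the collagen-low rats. The means were 9.55 ± 0.23 and 8.79 ± 0.38 (SD, n = 5 each), a distance of 0.76 or 1.69-fold, and the ends of the order were 1.44 apart, or 2.71-fold. The order had no step at the boundary. Vehicle rat 3, the lowest of the collagen-high rats, exceeded vehicle rat 4, the highest of the collagen-low rats, by 0.0003, while the neighbouring distances were 0.04 above and 0.27 below. Col1a1, a chain of type I collagen, averaged 7.79 ± 0.41 and 6.83 ± 0.45 (SD, n = 5 each) in the collagen-high and collagen-low rats. Col1a2, the other chain of type I collagen, averaged 8.81 ± 0.23 and 7.91 ± 0.42. Col3a1, the chain of type III collagen, averaged 12.04 ± 0.12 and 11.63 ± 0.28. These 3 genes chose the groups and are no result, and Col3a1 spanned the smallest range of them. When the probe sets of highest mean were used for the score, 0 rats changed group. By treatment, the score ranged from 8.41 to 9.72 in vehicle rats and from 8.63 to 9.85 in CVX-060 rats, with means of 9.06 ± 0.56 and 9.28 ± 0.46 (SD, n = 5 each), so that the treatment groups overlapped over most of the order.

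**Figure D1:**
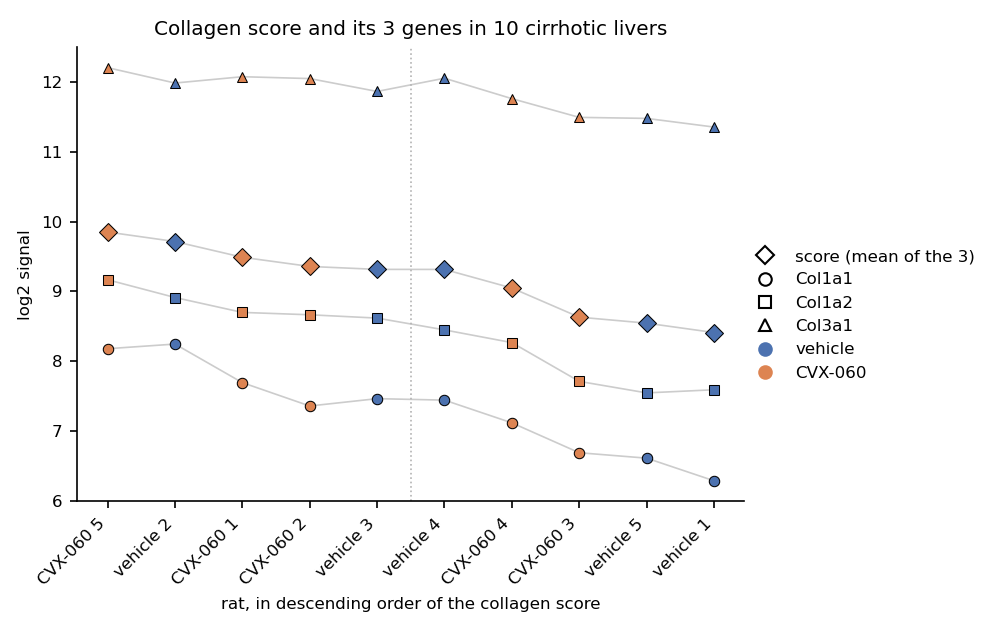
Log2 signal of Col1a1, Col1a2 and Col3a1 and their mean, the collagen score (diamonds), in each of the 10 rats, ordered by the score and coloured by treatment, with a dotted line between the collagen-high and the collagen-low rats. The score runs from 9.85 in CVX-060 rat 5 to 8.41 in vehicle rat 1, and the rats on either side of the line differ by 0.0003.

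The 2 rats with the highest scores also stood apart from the others over all genes. On the first principal component, which held 35.4% of the variance, vehicle rat 2 and CVX-060 rat 5 lay at 34.5 and 35.5 and the other rats between -26.2 and 9.74. Where the median of a list moved by over 1.5 times or changed sign without these 2 rats, that value is given beside it. Since these 2 rats have the highest scores, leaving them out also narrows the distance in score between the groups. Pairs of arrays correlated by 0.967 to 0.992 across genes, which are no independent replicates. Of 22 genes of hepatocyte secreted proteins, 20 were above background, as defined below, in all 10 rats. Of 14214 genes, 0 were higher and 0 were lower in the collagen-high rats at an adjusted p under 0.05 by limma with Benjamini-Hochberg adjustment, which is 0.0% in each direction. At an unadjusted p under 0.05, 765 genes (5.38%) were higher and 782 (5.5%) were lower. The signal of all 5 collagen-high rats was above that of all 5 collagen-low rats for 97 genes (0.682%) and below it for 201 genes (1.41%). Since the score set the groups, nothing is read from these counts. They stand as the background for the lists below, as do the share of all genes with a difference above 0 (46.1%), that with a difference below 0 (53.9%) and the median difference of -0.02. With the score as a continuous term in place of the groups, limma called 298 genes (2.1%) as higher and 71 (0.5%) as lower with a higher score at an adjusted p under 0.05, which rests on the same circular order.

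Collagens outside the score were mostly higher in the collagen-high rats. Of 16 measured genes of fibrillar, beaded filament and network collagens, 11 were higher and 5 lower, with a median difference of 0.22, or 0.16 without vehicle rat 2 and CVX-060 rat 5. At an unadjusted p under 0.05, 5 were higher and 0 lower. Col6a3, a chain of the beaded filament collagen VI, read 9.16, 9.41, 9.01, 8.58 and 8.51 in the collagen-high rats and 8.73, 8.21, 8.0, 7.59 and 7.90 in the collagen-low rats. It was higher by 0.85 ± 0.24, or 1.80-fold, and by 0.58 without the 2 highest rats. The groups overlapped through vehicle rat 4, which lay above CVX-060 rat 2 and vehicle rat 3. A second Col6a3 probe set differed by 0.11.

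Col5a2, a chain of collagen V, which nucleates type I fibrils, read 8.09, 8.24, 7.98, 7.95 and 7.40 in the collagen-high rats and 7.82, 7.44, 7.67, 7.03 and 7.01 in the collagen-low rats, a difference of 0.49 ± 0.20. Its partner chain Col5a1 differed by 0.29 ± 0.11. Both genes had collagen-low rats within the range of the collagen-high rats. Col8a2, a chain of the short-chain network collagen VIII, differed by 0.95 ± 0.35 and exceeded background in 7 of 10 rats, background being the 95th percentile of olfactory, vomeronasal and trace amine receptor probe sets on the same array. Of the list, 6 members were above background in no rat, so that their small differences say little.

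Basement membrane genes, which encode the sheet under ducts and vessels and the matrix that fills the space beside capillarised sinusoids, were higher for 15 of 20 members and lower for 5, with a median difference of 0.18. Without the 2 highest rats the median was 0.08, with 16 members higher and 4 lower, and it was 0.12 without vehicle rat 2 alone and 0.30 without vehicle rat 3 alone. At an unadjusted p under 0.05, 7 were higher and 2 lower. Lamc1, the laminin gamma 1 chain shared by most laminins, read 8.93, 8.83, 8.54, 8.73 and 8.95 in the collagen-high rats and 8.22, 8.43, 8.34, 8.28 and 8.25 in the collagen-low rats. The groups did not overlap, the difference was 0.49 ± 0.09, or 1.41-fold, and it was 0.44 without the 2 highest rats. The rats at the boundary of the score were far apart for this gene, vehicle rat 3 being the highest of all and vehicle rat 4 the lowest.

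In the next 3 basement membrane genes vehicle rat 4 lay within the collagen-high range. Lamb1, the laminin beta 1 chain, read 7.56, 8.08, 7.55, 7.43 and 7.21 against 7.39, 6.93, 6.98, 6.46 and 6.82, a difference of 0.66 ± 0.20. Col4a5, a chain of the network-forming collagen IV, differed by 0.76 ± 0.20. Nid1, the laminin-binding linker nidogen 1, differed by 0.49 ± 0.15, while its second probe set differed by -0.08. Lama3, the laminin alpha 3 chain of an epithelial laminin, went the other way, and it was chosen for mention after its values were seen. It read 8.03, 7.24, 7.52, 7.66 and 7.59 in the collagen-high rats and 8.60, 8.42, 7.49, 8.63 and 9.20 in the collagen-low rats, a difference of -0.81 ± 0.28. CVX-060 rat 3 was the collagen-low rat within the collagen-high range, and the difference was -1.39 in vehicle rats and -0.22 in CVX-060 rats.

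Genes of collagen processing split into lysyl oxidases, which crosslink the secreted fibrils, and the enzymes of the endoplasmic reticulum. As a list, 9 of 19 members were higher and 10 lower, the median difference was -0.02, or 0.02 without the 2 highest rats, and at an unadjusted p under 0.05 there were 3 higher and 0 lower. All 3 were lysyl oxidases. Loxl1, which crosslinks elastin and collagen, read 8.04, 8.83, 7.58, 7.31 and 7.54 in the collagen-high rats and 7.75, 6.82, 6.89, 6.03 and 6.65 in the collagen-low rats. The difference was 1.08 ± 0.36, or 2.11-fold, and 0.65 without the 2 highest rats, and vehicle rat 4 lay within the collagen-high range. Lox, the founding member, differed by 1.28 ± 0.38 with vehicle rat 2 highest at 7.80, and it exceeded background in 4 of 10 rats. Loxl2 differed by 0.39 ± 0.09 without overlap but was above background in no rat. Crtap, part of the prolyl 3-hydroxylase complex, was also above background in no rat and differed by -0.20 ± 0.09.

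**Figure D2:**
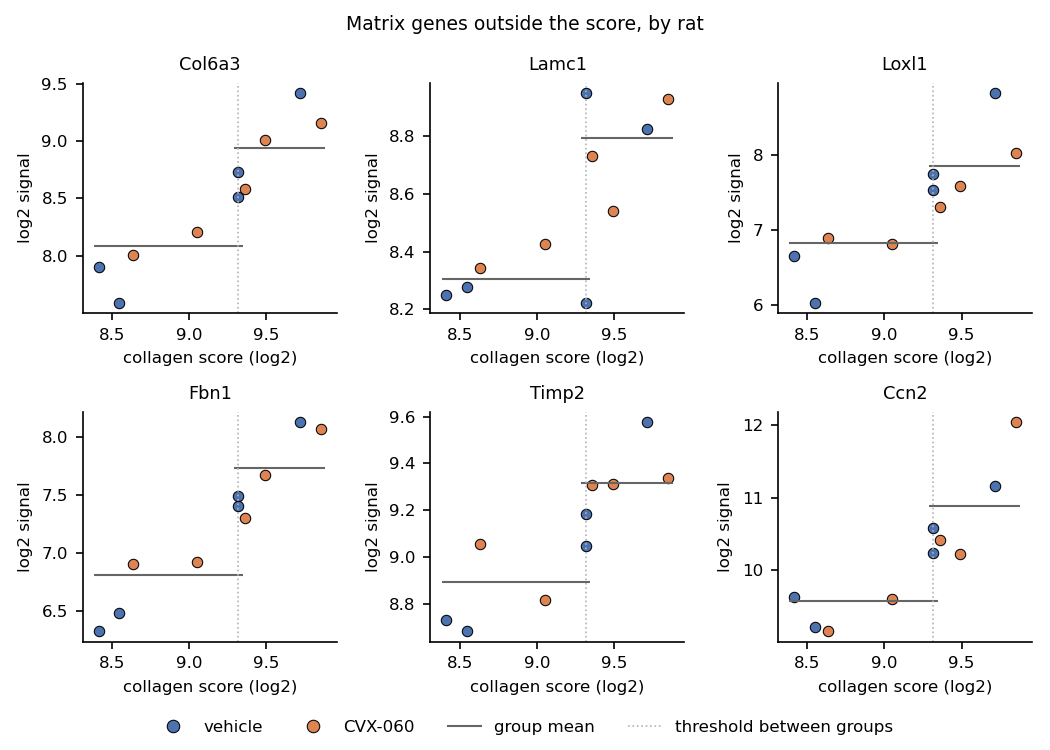
Log2 signal of 6 matrix genes outside the score (y axes, each with its own range) against the collagen score (x axes) in each of the 10 rats, coloured by treatment, with horizontal lines at the means of the collagen-high and collagen-low rats and a dotted line at the boundary. The groups do not overlap for Lamc1, whereas in the other 5 panels vehicle rat 4 lies above at least 1 of the collagen-high rats.

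Small leucine-rich proteoglycans, which coat collagen fibrils, were higher for 8 of 10 members and lower for 2, with a median difference of 0.27 and 3 higher against 0 lower at an unadjusted p under 0.05. Without the 2 highest rats it was 0.16, with 7 higher and 3 lower. Ogn, osteoglycin, read 8.84, 10.00, 9.07, 9.07 and 7.43 in the collagen-high rats and 7.80, 7.52, 6.93, 7.79 and 7.55 in the collagen-low rats. Of the collagen-high rats, 4 lay above every collagen-low rat, while vehicle rat 3 lay below all of them except CVX-060 rat 3. The difference was 1.39 ± 0.42, or 2.61-fold, and 0.93 without the 2 highest rats. Bgn, biglycan, differed by 0.39 ± 0.14. Aspn, asporin, differed by 1.04 ± 0.45, and Dcn, decorin, by 0.47 ± 0.25.

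Glycoproteins and elastic fibre genes were higher for 15 of 28 members and lower for 13. The median was 0.07, or 0.03 without the 2 highest rats. Of the 28, 10 were above background in no rat, and without genes under the 40th percentile of mean signal the median was 0.33. At an unadjusted p under 0.05, 5 were higher and 1 lower. Of the 5 higher ones, 4 belong to the microfibril or elastic fibre, and the other is the collagen-binding protein Sparc, at 0.38 ± 0.15. Fbn1, fibrillin 1, the main protein of microfibrils, read 8.06, 8.13, 7.67, 7.30 and 7.49 in the collagen-high rats and 7.40, 6.92, 6.91, 6.49 and 6.33 in the collagen-low rats. The difference was 0.92 ± 0.24, or 1.89-fold, and vehicle rat 4 lay above CVX-060 rat 2. A second probe set differed by 0.65. Ltbp1, which stores latent TGF-beta on microfibrils, differed by 0.90 ± 0.26, and Fbln5, the elastic fibre protein fibulin 5, by 0.73 ± 0.15. Mfap4, a microfibril-associated glycoprotein, differed by 0.92 ± 0.33, vehicle rat 4 reading 8.86 among collagen-low rats that otherwise read 7.14 to 8.17.

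Ecm1, extracellular matrix protein 1, was the member with the lowest difference and one that hepatocytes make. It read 8.02, 7.98, 8.96, 9.06 and 8.55 in the collagen-high rats and 9.03, 8.81, 9.42, 9.32 and 9.39 in the collagen-low rats, a difference of -0.71 ± 0.24. The signals of vehicle rat 2 and CVX-060 rat 5 were the lowest, and without them the difference was -0.36. Fibronectin and periostin, both known scar proteins, were looked up after the values were seen. Fn1, fibronectin, differed by -0.10 ± 0.15, and Postn, periostin, was above background in no rat.

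Matrix metalloproteinases and their inhibitors were higher for 15 of 22 members and lower for 7, with a median of 0.12. Of the 22, 9 were above background in no rat, and without genes under the 40th percentile of mean signal the median was 0.30. At an unadjusted p under 0.05, 3 were higher and 2 lower. The 3 higher ones were 2 inhibitors and a gelatinase. Timp2, a tissue inhibitor of metalloproteinases, read 9.34, 9.58, 9.31, 9.31 and 9.05 against 9.18, 8.82, 9.06, 8.68 and 8.73, a difference of 0.41 ± 0.13. Timp3, the inhibitor that binds to the matrix, differed by 0.63 ± 0.17. Mmp2, gelatinase A, differed by 0.55 ± 0.20. For Timp2 and Mmp2 the second probe sets differed by -0.06 and -0.09, so that the direction depends on the probe set. Mmp10, stromelysin 2, did not overlap between the groups, with a difference of -0.15 ± 0.06, but was above background in no rat.

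Genes of TGF-beta signalling were higher for 14 of 20 members and lower for 6, with a median of 0.20, or 0.15 without the 2 highest rats. With every probe set in place of 1 per gene the median was 0.05, so its size depends on the probe sets. At an unadjusted p under 0.05, 6 were higher and 1 lower. Among the ligands, Tgfb1, looked up after the values were seen, was above background in no rat and differed by 0.11 ± 0.11. Among the receptors, Tgfbr1, the type I kinase receptor, read 10.13, 10.12, 10.01, 10.02 and 10.03 in the collagen-high rats and 9.89, 9.84, 9.80, 9.80 and 9.61 in the collagen-low rats. The groups did not overlap, the difference was 0.27 ± 0.07, and the second probe set differed by -0.07.

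Targets of the pathway differed from each other, and the feedback inhibitors Smad7 and Bambi, looked up after the values were seen, were at -0.05 and -0.08. Ccn2, connective tissue growth factor, a profibrotic matricellular protein that TGF-beta induces, read 12.04, 11.17, 10.23, 10.41 and 10.59 in the collagen-high rats and 10.24, 9.61, 9.17, 9.23 and 9.63 in the collagen-low rats. The difference was 1.34 ± 0.36, or 2.54-fold, and 0.91 without the 2 highest rats, and vehicle rat 4 and CVX-060 rat 1 were level. Pmepa1, a TGF-beta target that limits SMAD signalling, read 7.93, 8.32, 7.79, 7.92 and 7.90 against 7.69, 7.58, 7.41, 7.25 and 7.20, without overlap, a difference of 0.56 ± 0.13. Skil, the SMAD repressor SnoN, differed by 0.61 ± 0.17, vehicle rat 1 alone among the collagen-low rats lying within the collagen-high range.

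Stellate cell and myofibroblast markers did not shift as a block. The median difference over 24 members was 0.11, with 15 of them higher and 9 lower, and 5 were higher and 3 lower at an unadjusted p under 0.05. The median was -0.01 within vehicle rats and 0.18 within CVX-060 rats. Lhx2, a transcription factor of quiescent stellate cells, read 5.91, 6.11, 7.09, 7.10 and 6.21 in the collagen-high rats and 7.03, 7.34, 7.33, 7.51 and 6.75 in the collagen-low rats. The difference was -0.79 ± 0.24, and -0.52 without the 2 highest rats, which had the 2 lowest signals. Nes, the intermediate filament nestin, differed by -0.20 ± 0.07, and Hhip, a hedgehog antagonist, by -0.27 ± 0.09 with no rat above background. Igfbp5, a binding protein of insulin-like growth factors, differed by 0.38 ± 0.13 and was above background in no rat.

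Further markers of this list were named after their values were seen, as known markers of cells that make collagen. Those named here were all higher and do not stand for the list, of which 9 of 24 members were lower. Acta2, the smooth muscle actin by which myofibroblasts are recognised, read 6.49, 5.94, 6.10, 6.01 and 5.92 in the collagen-high rats and 6.03, 5.87, 5.99, 5.72 and 6.13 in the collagen-low rats. Its difference was 0.12 ± 0.12 at signals close to background, which it exceeded in 9 of 10 rats, and 4 of the 5 collagen-high rats lay within the range of the collagen-low rats. Pdgfra, a receptor for platelet-derived growth factor on mesenchymal cells, differed by 0.48 ± 0.18. Cygb, cytoglobin, a haem protein of stellate cells, differed by 0.81 ± 0.33, and Tagln, the actin-binding protein transgelin, by 0.74 ± 0.33. Without the 2 highest rats, Cygb differed by 0.46 and Tagln by 0.35. Portal fibroblast and mesothelial markers had a median of -0.07, with 4 of 10 members higher and 6 lower, and 0 higher and 1 lower at an unadjusted p under 0.05. The one was Pi16, a peptidase inhibitor of adventitial fibroblasts, which was above background in no rat. Dpt, the matrix protein dermatopontin, differed by -0.39 ± 0.20.

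**Figure D3:**
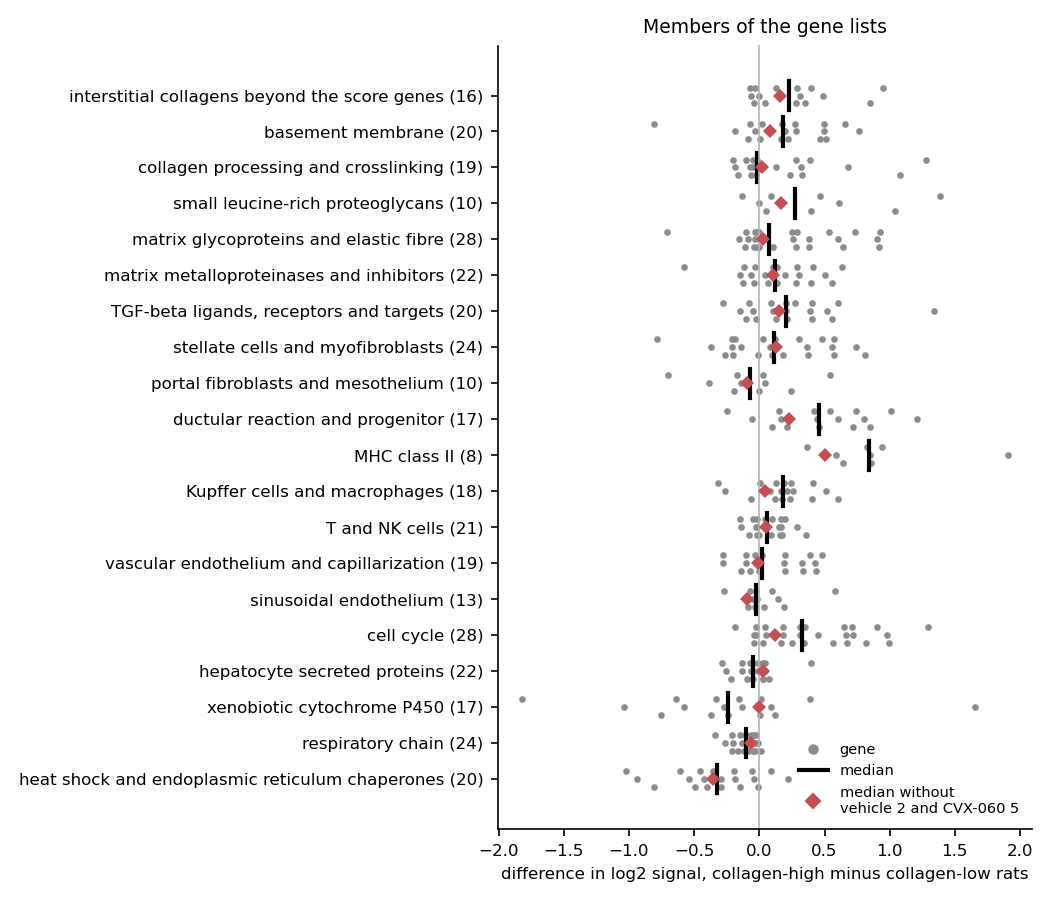
Difference in log2 signal between collagen-high and collagen-low rats, adjusted for treatment, for each measured member (grey points) of 20 gene lists, with the number of members in brackets, the median (black bar) and the median without vehicle rat 2 and CVX-060 rat 5 (red diamond). The MHC class II members all lie above 0 with a median of 0.84, the ductular list has a median of 0.46, and the diamonds of the MHC class II (0.50), ductular (0.23), cell cycle (0.12), basement membrane (0.08) and cytochrome P450 (0.00) lists lie nearer to 0 than their bars.

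Markers of ductular cells, the biliary and progenitor-like epithelium that proliferates in cirrhosis, were higher for 15 of 17 members and lower for 2, with a median of 0.46. Without the 2 highest rats it was 0.23, with 14 members higher and 3 lower. At an unadjusted p under 0.05, 4 were higher and 0 lower. Tspan8, a tetraspanin of biliary epithelium, read 8.09, 8.68, 7.52, 7.18 and 6.90 in the collagen-high rats and 7.78, 6.55, 6.37, 5.70 and 6.02 in the collagen-low rats. The difference was 1.21 ± 0.45, and vehicle rat 4 lay above 3 of the collagen-high rats. Prom1, the progenitor surface protein prominin 1, differed by 0.72 ± 0.23, and Anxa3, the membrane-binding annexin 3, by 0.44 ± 0.15. Cftr, the chloride channel of bile ducts, was above background in no rat.

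The means of the ductular list, each member taken relative to its mean over the 10 rats, were 0.43, 0.66, 0.15, -0.10 and 0.01 in the collagen-high rats and 0.32, -0.05, -0.41, -0.50 and -0.51 in the collagen-low rats. The 3 rats at the bottom of the collagen order thus had the lowest ductular means, and vehicle rat 4 the third highest. Epcam and Krt19, epithelial markers of ductules named after their values were seen, differed by 1.01 ± 0.51 and 0.74 ± 0.47. The 3 rats lowest in the collagen order read 6.92 to 7.56 for Epcam and 4.30 to 4.97 for Krt19, and the other 7 read 8.04 to 9.68 and 5.64 to 6.55. For Krt19 the 3 lowest rats lay under background. The other 7 ran from within its range over the arrays, 5.46 to 5.83, to above that range.

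MHC class II genes, whose products present peptides to CD4 T cells and are made by macrophages, dendritic cells and B cells, had the highest median of the 32 lists over all 10 rats. All 8 members were higher in the collagen-high rats, all 8 at an unadjusted p under 0.05, and the median difference was 0.84, or 0.50 without the 2 highest rats. Class II genes are known to be coregulated through an X box and a Y box, read by the factors that recruit the coactivator CIITA. The list also holds Ciita itself, and coregulation was not tested here. RefSeq promoter windows from 250 bases before to 50 bases after the gene start, on the GRCr8 build, matched 6 of the 8 members. An X box core was searched on both strands as AG, 2 bases of any kind, AC, 1 base of any kind and GATG. It lay in a window of 3 of the 6 genes, against 0.950% of all 33469 promoter windows. A Y box, searched as CTGATTGG on both strands, lay in a window of 4 of the 6, against 3.50%. Members were counted by gene and all promoters by window, so the shares differ in unit. The matches are letters in a window and not sites shown to be bound. The motifs were not shared by all 6 genes, since RT1-Ba had the Y box alone and Cd74 and RT1-DMa had neither. The matches before the gene start are printed, on the strand of each gene, with the motifs in capitals and 12 bases on either side.
RT1-Da, chr20:4515320-4515382, + strand: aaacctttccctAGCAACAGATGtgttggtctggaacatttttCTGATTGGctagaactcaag
RT1-Db1, chr20:4560226-4560287, - strand: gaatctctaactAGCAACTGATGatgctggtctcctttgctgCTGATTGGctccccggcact
RT1-Bb, chr20:4604163-4604224, - strand: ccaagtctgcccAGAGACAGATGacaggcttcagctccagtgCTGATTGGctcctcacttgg
RT1-Ba, chr20:4576999-4577030, + strand: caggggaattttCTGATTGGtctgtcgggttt

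RT1-Da, the alpha chain of the class II D molecule, read 12.07, 11.69, 11.26, 11.38 and 10.69 in the collagen-high rats and 10.72, 10.58, 10.41, 9.81 and 10.63 in the collagen-low rats. The difference was 0.94 ± 0.26, and vehicle rat 4 lay just above vehicle rat 3, which was the one overlap. RT1-Db1, its beta chain, read 10.48, 10.12, 9.83, 9.85 and 9.13 against 9.24, 9.08, 9.13, 8.54 and 8.98, a difference of 0.82 ± 0.22. Cd74, the invariant chain that escorts class II molecules, differed by 0.86 ± 0.27. RT1-DMb, a chain of the peptide-loading chaperone, differed by 0.59 ± 0.18. In these 4 genes vehicle rat 3 lay within the range of the collagen-low rats and CVX-060 rat 5 was the highest.

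The remaining members were the B molecule chains RT1-Ba and RT1-Bb, the loading chain RT1-DMa and the coactivator gene Ciita. RT1-Ba differed by 0.85 ± 0.28 and RT1-DMa by 0.64 ± 0.27. RT1-Bb had the widest spread, reading 10.47, 9.75, 9.56, 10.59 and 8.68 in the collagen-high rats and 8.88, 8.78, 4.82, 7.89 and 9.65 in the collagen-low rats. CVX-060 rat 3 lay under background for RT1-Bb, the difference was 0.40 within vehicle rats and 3.41 within CVX-060 rats, and a second probe set differed by 0.36. Its difference of 1.91 was 0.80 to 2.46 with each rat left out in turn. RT1 sequences are similar to each other and vary between rats, and how far the probe sets tell them apart was not tested. Ciita differed by 0.37 ± 0.13 and exceeded background in 3 of 10 rats.

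Other leukocyte lists had medians closer to 0. Macrophage and Kupffer cell markers were higher for 15 of 18 members and lower for 3, with a median of 0.18, and 3 were higher and 0 lower at an unadjusted p under 0.05. Without the 2 highest rats the median was 0.05, and without CVX-060 rat 4 it was 0.06. With the replicate number as a blocking factor it was -0.025. Adgre1, an adhesion receptor of macrophages, read 7.35, 7.06, 6.84, 7.06 and 6.66 in the collagen-high rats and 6.42, 5.95, 6.80, 6.19 and 6.49 in the collagen-low rats, a difference of 0.60 ± 0.18. CVX-060 rat 3 was the collagen-low rat within the collagen-high range. Csf1r, the receptor for the macrophage growth factor, differed by 0.41 ± 0.15, and Aif1, a macrophage calcium-binding protein, by 0.40 ± 0.14. Lyz2, lysozyme, differed by 0.51 ± 0.25.

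Lymphocyte lists differed little as groups. T and NK cell markers had a median of 0.06 with 13 of 21 members higher, 8 lower, and 2 higher and 0 lower at an unadjusted p under 0.05. Of the T cell receptor complex, Cd3g differed by 0.36 ± 0.13 and exceeded background in 2 of 10 rats, and Cd3d did so in none. Of the whole T and NK list, 11 members were above background in no rat. B and plasma cell markers had a median of 0.03, or 0.09 without the 2 highest rats, with 6 of 10 members higher and 4 lower, and at an unadjusted p under 0.05 there were 1 higher, Cd74, and 0 lower. Cd22, a B cell lectin, differed by -0.23 ± 0.12.

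Neutrophil and mast cell markers had a median of 0.04, with 7 of 10 members higher, 3 lower, and 3 higher against 0 lower at an unadjusted p under 0.05. The median was 0.29 without the 2 highest rats, with 8 higher and 2 lower, and -0.01 to 0.23 with each rat left out in turn. Cpa3, the mast cell carboxypeptidase, read 7.05, 7.37, 7.02, 6.34 and 6.04 in the collagen-high rats and 6.37, 5.34, 5.17, 5.24 and 5.32 in the collagen-low rats. The difference was 1.30 ± 0.31, and 0.98 without the 2 highest rats. Vehicle rat 4, next to the boundary, was the collagen-low rat above background and within the collagen-high range. Cma1, mast cell chymase, differed by 0.86 ± 0.26 and exceeded background in 1 of 10 rats, and Fcer1a, a chain of the IgE receptor, by 0.36 ± 0.13 with no rat above background. Kit, the stem cell factor receptor of mast cells, was above background in no rat and differed by -0.06 ± 0.08.

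Endothelial lists held few differences. Sinusoidal endothelial markers were higher for 5 of 13 members and lower for 8, with a median of -0.03, or -0.09 without the 2 highest rats, and 0 higher and 0 lower at an unadjusted p under 0.05. Clec1b, a lectin of sinusoidal endothelium, differed by -0.27 ± 0.15. Vascular endothelial markers had a median of 0.02, or -0.01 without the 2 highest rats, with 10 of 19 higher and 9 lower, and 1 higher and 1 lower at an unadjusted p under 0.05. Plvap, the diaphragm protein of fenestrated and scar-associated vessels, read 7.37, 7.45, 7.34, 7.50 and 7.17 in the collagen-high rats and 6.97, 7.11, 7.10, 6.72 and 7.12 in the collagen-low rats. The groups did not overlap, and the difference was 0.33 ± 0.09. Eng, the TGF-beta coreceptor endoglin, differed by -0.28 ± 0.10. Tek, which encodes the receptor Tie2 that the treatment acts on, was looked up after the values were seen and differed by -0.02 ± 0.17.

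Cell cycle genes were higher for 23 of 28 members and lower for 5, with a median of 0.33, and 11 were higher and 0 lower at an unadjusted p under 0.05. Of the 28 members, 7 were above background in all 10 rats, and without genes under the 40th percentile of mean signal the median was 0.02. The difference lay mainly in 2 animals. The list means relative to all 10 rats were 0.76 in CVX-060 rat 5 and 0.55 in vehicle rat 2, and between -0.40 and 0.05 in the other 8 rats. Without these 2 rats the median was 0.12, with 17 members higher and 11 lower. Top2a, the topoisomerase of dividing cells, read 6.42, 6.12, 5.47, 5.15 and 5.20 in the collagen-high rats and 5.13, 4.97, 4.92, 5.04 and 4.70 in the collagen-low rats. It exceeded background in these same 2 rats, and its difference was 0.72 ± 0.25, or 0.31 without them. Cdkn3, a phosphatase of the cell cycle, differed by 1.30 ± 0.52, or 0.58 without them. Mcm7, a subunit of the replicative helicase that was above background in all rats, differed by 0.35 ± 0.11, or 0.29 without them. Tyms, thymidylate synthase, was above background in no rat.

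**Figure D4:**
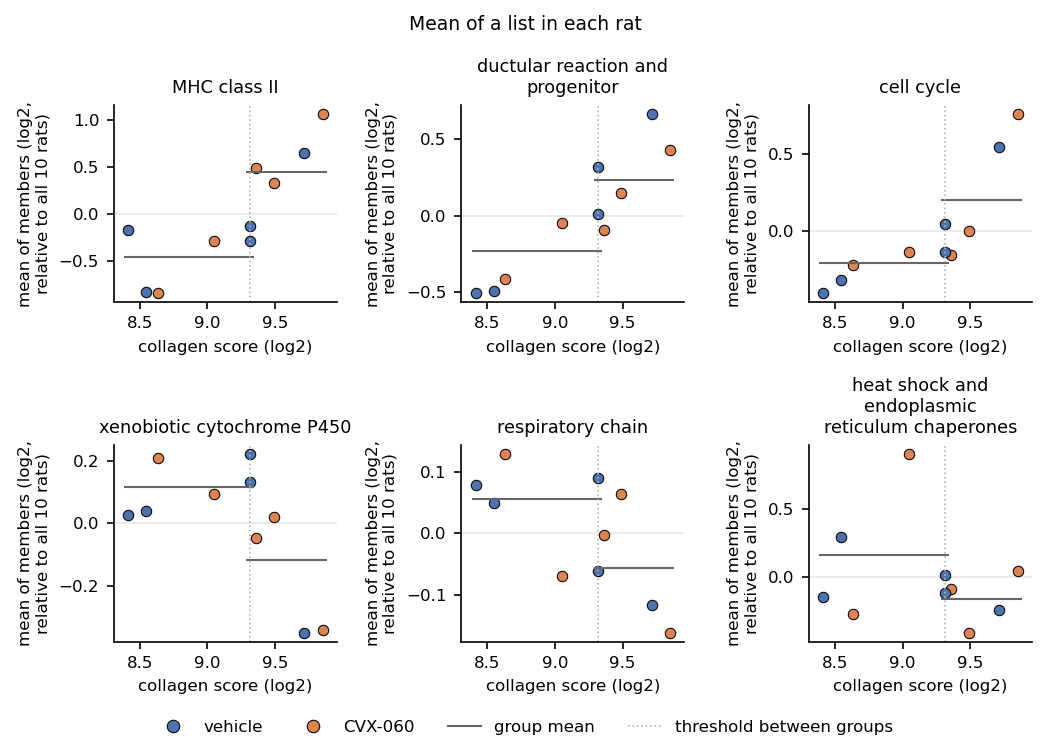
Mean over the members of 6 gene lists (y axes, log2, each member relative to its mean over the 10 rats) against the collagen score (x axes) in each rat, coloured by treatment, with horizontal lines at the group means and a dotted line at the boundary. MHC class II and ductular means are mostly above 0 in the collagen-high rats, CVX-060 rat 5 and vehicle rat 2 lie farthest from 0 in the cell cycle and cytochrome P450 panels, and CVX-060 rat 4 stands at 0.90 in the chaperone panel.

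Hepatocyte secreted proteins had a median close to that of all genes. It was -0.05, or 0.03 without the 2 highest rats, with 8 of 22 members higher and 14 lower, and 0 were higher and 0 lower at an unadjusted p under 0.05. Apoa1, the main protein of high-density lipoprotein, differed by 0.40 ± 0.19, and the coagulation factors F9 and F10 by -0.13 ± 0.11 and -0.13 ± 0.10.

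Cytochrome P450 genes of drug metabolism, which hepatocytes lose as they dedifferentiate, were lower for 11 of 17 members and higher for 6, with a median of -0.24, and 3 were lower and 1 higher at an unadjusted p under 0.05. Without vehicle rat 2 and CVX-060 rat 5 the median was 0.00, with 9 members higher and 8 lower. Cyp2c11, the main P450 of adult male rat liver, read 11.42, 8.99, 12.69, 13.46 and 13.80 in the collagen-high rats and 13.68, 13.54, 13.90, 13.93 and 13.87 in the collagen-low rats. The difference of -1.82 ± 0.81 became -0.38 without these 2 rats. Cyp2c12, a P450 typical of female rats that was looked up after the values were seen, read 12.02 in CVX-060 rat 5 and 12.71 in vehicle rat 2, and 7.11 to 9.79 in the others. Its difference of 1.65 ± 1.16 was the highest of the list and became -0.30 without these 2 rats. Cyp3a9 differed by -1.03 ± 0.44 and Cyp3a18 by -0.75 ± 0.28, both CYP3A enzymes, and without these 2 rats by -0.51 and -0.29. Cyp2a1, a steroid hydroxylase, was the 1 member higher at an unadjusted p under 0.05, at 0.39 ± 0.14.

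Bile acid genes had a median of -0.03, with 8 of 18 members higher and 10 lower, and 2 higher and 0 lower at an unadjusted p under 0.05. The median was 0.12 without the 2 highest rats, with 13 members higher and 5 lower. Abcc3, the basolateral export pump that hepatocytes raise in cholestasis, read 9.65, 9.27, 9.08, 8.48 and 8.92 in the collagen-high rats and 8.12, 9.07, 6.48, 7.21 and 7.25 in the collagen-low rats. The difference was 1.43 ± 0.46, or 2.70-fold, and 1.17 without the 2 highest rats, and CVX-060 rat 4 was the one collagen-low rat within the collagen-high range. Abcb4, the phospholipid exporter of the bile canaliculus, differed by 0.64 ± 0.20.

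Respiratory chain genes were lower for 23 of 24 members and higher for 1, by small amounts. The median was -0.10, and 5 were lower and 0 higher at an unadjusted p under 0.05. Without the 2 highest rats the median was -0.06, with 17 members lower and 7 higher. Ndufb8, a subunit of complex I, read 8.59, 8.60, 8.71, 8.60 and 8.47 in the collagen-high rats and 8.88, 8.79, 9.02, 8.98 and 8.97 in the collagen-low rats, without overlap, a difference of -0.34 ± 0.07. Sdhb, the iron-sulphur subunit of complex II, also did not overlap and differed by -0.17 ± 0.06. Ndufs3 and Ndufb3, further subunits of complex I, differed by -0.21 ± 0.09 each. The list means were -0.16 and -0.12 in CVX-060 rat 5 and vehicle rat 2, the 2 lowest of the 10.

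Chaperones of the endoplasmic reticulum and heat shock proteins had the lowest median of the 32 lists, with 18 of 20 members lower, 2 higher and a median of -0.32. At an unadjusted p under 0.05, 6 were lower and 0 higher. The list was dominated by 1 animal. CVX-060 rat 4, a collagen-low rat, had a list mean of 0.90 relative to all rats, where the others lay between -0.40 and 0.29, and without it the median was -0.10. Sdf2l1, a luminal cochaperone, read 9.61, 9.29, 9.22, 9.71 and 9.61 in the collagen-high rats and 10.14, 11.78, 9.99, 10.62 and 9.61 in the collagen-low rats, with CVX-060 rat 4 at 11.78. The differences were -1.02 ± 0.34 for Sdf2l1, -0.61 ± 0.26 for the cochaperone Dnajb11, -0.54 ± 0.20 for the disulphide isomerase Pdia3 and -0.43 ± 0.17 for the calcium-binding lectin Calr.

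Over all genes, 10 per direction were named by the smallest unadjusted p among those whose groups did not overlap and that were above background in the higher group, since 0 genes passed the adjusted threshold. They were picked for their separation, which is therefore no finding. In the higher direction these were Zfp770, a zinc finger protein, Sowahc, an ankyrin repeat protein, Dixdc1, a DIX domain protein of Wnt signalling, Ankrd44, a regulatory subunit of protein phosphatase 6, Lamc1, Mtfr2, a regulator of mitochondrial fission, Ptprc, Il2rg, Fas and Aldh1b1. Ptprc, the pan-leukocyte phosphatase CD45, read 8.43, 8.21, 8.02, 8.22 and 7.94 in the collagen-high rats and 7.65, 7.43, 7.74, 7.32 and 7.63 in the collagen-low rats, a difference of 0.59 ± 0.12, and its second probe set differed by 0.52. Il2rg, the common gamma chain of interleukin receptors, differed by 0.63 ± 0.13, and Fas, the death receptor, by 0.77 ± 0.16.

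Aldh1b1, a mitochondrial aldehyde dehydrogenase, had the widest difference of these 10 genes. It read 8.93, 8.23, 8.28, 8.64 and 8.75 in the collagen-high rats and 7.98, 7.48, 6.15, 7.04 and 7.09 in the collagen-low rats. The difference was 1.46 ± 0.31, or 2.76-fold, and 1.53 without the 2 highest rats, and it was 1.12 within vehicle and 1.80 within CVX-060 rats. Zfp770 differed by 0.87 ± 0.13, but its second probe set by 0.02. Sowahc, Dixdc1, Ankrd44 and Mtfr2 differed by 0.55 ± 0.08, 0.59 ± 0.10, 0.79 ± 0.14 and 0.43 ± 0.08.

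In the lower direction the named genes differed by less, from -0.59 to -0.30. Bola1, a mitochondrial iron-sulphur protein, differed by -0.43 ± 0.08, Ints11, the endonuclease of the Integrator complex, by -0.42 ± 0.08 and Scfd2, a Sec1 family protein, by -0.48 ± 0.09. Abhd14a, an alpha/beta hydrolase, read 5.66, 5.63, 5.69, 5.62 and 5.57 against 6.20, 6.29, 6.11, 6.59 and 5.91, a difference of -0.59 ± 0.12, and was close to background in every collagen-high rat. Anapc11, the RING subunit of the anaphase-promoting complex, Cenpv, a centromere protein, Timmdc1, an assembly factor of complex I, C1h11orf98 and Trabd2b, a protease that acts on Wnt proteins, differed by -0.30 ± 0.06, -0.48 ± 0.10, -0.32 ± 0.07, -0.33 ± 0.07 and -0.31 ± 0.07.

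Naming genes by the continuous score, an addition made after the data were seen, gave genes that follow the whole order. Besides Fbn1, Mfap4, Ltbp1 and Col6a3, the 10 with the smallest p in the higher direction were Kitlg, Ptpn13, Tusc3, Fhl2, Scara5 and Sri. Kitlg, stem cell factor, the ligand of Kit, read 6.66, 7.04, 6.05, 5.82 and 6.55 in the collagen-high rats and 6.44, 5.75, 5.13, 5.26 and 5.48 in the collagen-low rats, a difference of 0.90 ± 0.26, while its 3 other probe sets differed by -0.08 to 0.14. Fhl2, a LIM protein of contractile and mesenchymal cells, differed by 0.97 ± 0.33. Scara5, a ferritin receptor of fibroblasts, differed by 0.96 ± 0.27, Tusc3, an oligosaccharyltransferase subunit, by 1.06 ± 0.33, Ptpn13, a tyrosine phosphatase, by 0.61 ± 0.18, and Sri, the calcium-binding protein sorcin, by 0.85 ± 0.32.

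In the lower direction by the continuous score were Slc13a5, Bpnt1, Abtb3, Pm20d2, Obp3, Hacl1, Lin7a, Hsd17b12, Tkfc and Scfd2. Obp3, a lipocalin, had the widest difference of all named genes. It read 5.85, 4.21, 7.16, 8.30 and 10.46 in the collagen-high rats and 9.58, 7.98, 13.24, 13.00 and 13.03 in the collagen-low rats, a difference of -4.02 ± 1.40, and -2.25 without vehicle rat 2 and CVX-060 rat 5. The 3 rats at the bottom of the collagen order read 13.00 to 13.24 and the 2 at the top 4.21 and 5.85, and a second probe set differed by -3.44. Slc13a5, the citrate transporter of hepatocytes, read 6.21, 6.12, 7.08, 7.51 and 6.53 against 6.58, 7.30, 9.09, 7.72 and 8.62, a difference of -1.29 ± 0.46. Hacl1, a lyase of peroxisomal alpha-oxidation, Hsd17b12, a fatty acid elongation enzyme, Tkfc, a fructose-metabolising kinase, and Bpnt1, a nucleotide phosphatase, differed by -0.72 ± 0.26, -0.40 ± 0.15, -0.61 ± 0.12 and -0.37 ± 0.14. Abtb3, Pm20d2, a dipeptidase, and Lin7a, a scaffold protein, differed by -0.94 ± 0.32, -0.47 ± 0.21 and -0.85 ± 0.25.

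The differences were compared between treatments by an interaction term, added after the data were seen. The term asks whether the distance from collagen-high to collagen-low rats differed between vehicle and CVX-060 rats. An adjusted p under 0.05 by limma was reached by 0 of 14214 genes (0.0%), and an unadjusted p under 0.05 by 251 genes (1.77%). The term rests on 2 against 3 vehicle and 3 against 2 CVX-060 rats, in groups set by values of the same arrays. These counts therefore cannot show that the treatments were alike. Within vehicle rats the median differences of the MHC class II, ductular and interstitial collagen lists were 0.53, 0.59 and 0.16, and within CVX-060 rats 1.0, 0.42 and 0.23. Other lists changed sign between the treatments. The medians of the immediate early, chemokine and stellate cell lists were -0.58, -0.06 and -0.01 within vehicle rats. Within CVX-060 rats they were 0.47, 0.54 and 0.18.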

How the data were processed

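Livers of 10 cirrhotic male Wistar rats, 5 given vehicle and 5 CVX-060, were each measured on an array. The authors deposited log2 signals of probe sets, which they had normalized between arrays (array medians 5.52 to 5.57). In the submitters' processing notes the tools are R 3.4.0 with affy 1.56.0 and limma 3.38.2, and the background correction and summary method are not given in the sources used here. They were used without further normalization.

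Of 31099 probe sets, 57 controls, 436 with several symbols and 9780 without one were left out. The other 20826 cover 14217 genes, each read from its probe set of highest variance, and 14214 genes without the score genes were fitted with group and treatment by lmFit and eBayes (limma 3.58.1, R 4.3.3), with Benjamini-Hochberg adjustment. Python 3.11.15 with numpy 2.4.6, pandas 2.3.3 and matplotlib 3.10.9 made tables and plots. The fit was tested on simulated data. Background was the 95th percentile of 32 olfactory, vomeronasal and trace amine receptor probe sets on the same array, at 5.46 to 5.83.

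The groups, their members and the 32 gene lists were chosen with earlier results of these data known. Named genes were the 10 per direction with the largest difference among genes at an adjusted p under 0.05 without overlap and above background in the higher group, filled by the smallest unadjusted p, plus up to 4 members of each list with the smallest p. Lists are given as counts and medians, with no set test. Naming by the continuous score and the interaction were added after the data were seen. The results were recomputed with the highest-mean probe set, with every probe set, without genes under the 40th percentile of mean signal, and with quantile normalization, median centring, array weights, a trended robust prior, no treatment term, the continuous score, the replicate number as a blocking factor, each rat omitted in turn, the 5th and 6th rats left out, vehicle rat 2 and CVX-060 rat 5 left out, Bmal1 as a covariate, each treatment alone, and background at the 90th and 99th percentiles. The number of arrays limits the precision. The rats were separate animals, and the spread between them holds both biological and technical variation.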

Additional observations from a re-analysis of the deposited data

Results flagged for a closer look

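In 104 checks for a rat far from the other 4 of its group, over the named genes and the list means, 4 were met. The named genes were picked for separate groups and some lists share members, so no chance rate is set beside this count. Zfp770 read 9.15 in vehicle rat 2 and 8.27 to 8.45 in the other collagen-high rats. Ankrd44 read 9.70 in vehicle rat 2 and 9.12 to 9.28 in the others of that group. Bola1 read 8.87 in CVX-060 rat 5 and 9.08 to 9.14 in the other collagen-high rats. The mean of the interferon response genes, relative to all rats, was 0.48 in vehicle rat 5 and -0.16 to -0.06 in the other collagen-low rats.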

How the results depend on the processing

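The counts at an adjusted p under 0.05 were 0 in each direction, and the alternatives other than the continuous score (298 higher and 71 lower) gave 0 to 1 higher and 0 lower, with 1 higher when vehicle rat 2 or vehicle rat 3 was left out. At an unadjusted p under 0.05, the genes higher numbered 765, and 1651 by the continuous score, 1251 without the 5th and 6th rats, 295 without vehicle rat 2 and CVX-060 rat 5, 382 within vehicle rats, 388 within CVX-060 rats, and 338 (without vehicle rat 2) to 1292 (without vehicle rat 3) with each rat left out. The genes lower numbered 782, and 1314 by the continuous score, 423 under the filter on dim probe sets, 362 without vehicle rat 2 and CVX-060 rat 5, 459 within vehicle rats, 188 within CVX-060 rats, and 390 (without vehicle rat 2) to 944 (without vehicle rat 3) with each rat left out. The replicate block gave 450 genes lower. The replicate numbers were not taken to pair the rats, since deviations of the 5 same-numbered pairs correlated by -0.17 to 0.15 and 1 of the 5 exceeded 0.1. Under the same replicate block, the medians were -0.025 for macrophages and 0.21 for collagen processing. The cause of these shifts was not tested, beyond fewer rats or genes where the alternative removes them.

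Of 800 list medians under alternatives, 17 moved by more than the spread between rats and 103 had the opposite sign, mostly of medians near 0. Without the 5th and 6th rats the medians were 0.32 for basement membrane and 0.21 for vascular endothelium. The MHC class II, ductular and cell cycle medians were then 1.13, 0.64 and 0.53, which moved by less than the spread between rats. The filter gave 0.33 for glycoproteins and 0.30 for metalloproteinases, every probe set gave 0.050 for TGF-beta, and the continuous score, per SD, gave 0.090 for interstitial collagens. Within vehicle rats the medians were 0.0032 for metalloproteinases, -0.0075 for stellate markers and -0.58 for immediate early genes, and within CVX-060 rats 0.47 for immediate early and 0.21 for clock genes. Leaving out vehicle rat 2 and CVX-060 rat 5 gave 0.00074 for cytochrome P450. With each rat left out, the ranges were -0.013 to 0.13 for collagen processing, -0.029 to 0.23 for vascular endothelium and -0.31 to -0.071 for cytochrome P450. Of 3424 differences of named genes, 72 moved and 20 had the opposite sign. Of the 72, 39 were under the continuous score. Its values are per SD of the score and not between groups, so they differ in unit from the main values. The same holds for the 0.090 of interstitial collagens. Of the 20 genes named for separate groups, 18 were above background in all 10 rats, and 20 and 14 with background at the 90th and 99th percentiles.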

Other observations

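Chemokines and cytokines were higher for 20 of 25 members and lower for 5 in the collagen-high rats, with a median of 0.20 and 2 higher and 0 lower at an unadjusted p under 0.05. Without vehicle rat 2 and CVX-060 rat 5 the median was 0.50 and all 25 members were higher. It was -0.06 within vehicle and 0.54 within CVX-060 rats, 0.06 without CVX-060 rat 4 and 0.52 without vehicle rat 1. The sign turned with the replicate number as a blocking factor, at -0.08, and with the continuous score, at -0.16 per SD of the score. Cxcl16, a membrane-bound chemokine, read 9.73, 8.77, 7.76, 8.03 and 7.93 in the collagen-high rats and 7.70, 7.72, 7.44, 7.25 and 7.69 in the collagen-low rats, in descending order of the score, without overlap. Cx3cl1, fractalkine, differed by 0.51 ± 0.18. Relative to all rats, the means of this list were -0.39, -0.32, -0.01, 1.21 and 0.24 in the collagen-high rats and -0.23, -0.75, 0.06, -0.92 and 1.10 in the collagen-low rats, so that CVX-060 rat 2 and vehicle rat 1, from opposite groups, were the highest.

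Acute phase genes had a median of -0.02, or 0.04 without vehicle rat 2 and CVX-060 rat 5, with 9 of 19 higher and 10 lower, and 3 higher and 0 lower at an unadjusted p under 0.05. Lcn2, lipocalin 2, read 9.41, 9.94, 8.98, 6.32 and 9.11 in the collagen-high rats and 7.51, 7.69, 6.54, 5.48 and 8.46 in the collagen-low rats, a difference of 1.74 ± 0.73. CVX-060 rat 2 was the collagen-high rat with a low Lcn2. Lbp, which binds bacterial lipopolysaccharide, differed by 0.79 ± 0.33, and the copper carrier Cp by 0.42 ± 0.15.

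The medians of the remaining lists were 0.11 for fatty acid oxidation (14 of 21 higher, 7 lower), -0.05 for cholesterol and fatty acid synthesis (8 of 18 higher, 10 lower), -0.04 for the urea cycle and zonation (6 of 17 higher, 11 lower), -0.02 for immediate early genes (11 of 22 higher, 11 lower), -0.05 for interferon response genes (8 of 21 higher, 13 lower) and -0.03 for clock genes (8 of 16 higher, 8 lower). Without vehicle rat 2 and CVX-060 rat 5 these medians were, in the same order, 0.01, 0.04, -0.02, 0.07, -0.03 and 0.07. The median of the immediate early genes was -0.58 within vehicle and 0.47 within CVX-060 rats. Fasn, fatty acid synthase, differed by -0.85 ± 0.35 and by -0.31 without vehicle rat 2 and CVX-060 rat 5. Red blood cell genes had a median of -0.18, with 0 of 4 higher and 4 lower. Of the 4, 2 were above background in no rat and 1 was above it in all rats. Hbb, beta globin, read 10.82 to 12.12 over the rats.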
